A study of Bos taurus with 6 samples.

Results

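Weak narrow H3K4me3 regions are stretches of the bovine autosomes at which all 3 replicates of in vitro produced blastocysts had a peak, but a short one with a low score. They were chosen by measured values of the peak lists. The peaks of the 3 lists were pooled and joined into regions where they overlapped or touched, and a region was kept when peaks covered less than 1500 bp and the highest peak score was under 200 in each replicate. This gave 874 regions, or 5.38% of the 16231 autosomal regions marked in all 3 replicates, and 3.66% of all 23861 autosomal regions. Further regions were just as weak and narrow but lacked a peak in at least 1 replicate, namely 1674 regions with peaks in 2 replicates and 4201 with a peak in 1 replicate. Of all regions that met both limits in every list in which they had a peak, 13.0% therefore appeared in all 3 lists. Regions weak and narrow in 1 list but stronger or wider in another are in none of these sets. The share is thus not the rate at which a weak narrow peak of 1 list recurs in the others.

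The blastocysts came from 2 rounds of IVF, which the labels do not assign to replicates, with culture in semi-defined mSOF medium with albumin under low oxygen to day 8, and were collected 192 h after IVF as a mixture of early to hatched stages, in 3 groups of approximately 11 unsexed embryos. Each group was crosslinked and sheared, and H3K4me3 chromatin was pulled down with 3 µg of antibody, while an aliquot without pull-down served as the input of the same replicate. No embryos were treated differently, so all replicates belong to a single condition and the only spread that can be measured is that between replicates. The pool of embryos, the IVF round, the pull-down and the depth of the library cannot be told apart in it. Whole blastocysts were used, so a region marked in few cells cannot be told apart from one that is weakly marked in all cells.

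H3K4me3 is the trimethylated form of lysine 4 on histone H3. It is laid down by enzymes of the SET1 and MLL family, which are drawn to CpG-rich DNA, and it is bound by parts of the transcription machinery. Its strongest and broadest sites lie at promoters of transcribed genes, whereas low levels are also known at promoters of rarely transcribed genes and at enhancers. No gene model or sequence of UMD 3.1.1, the assembly of the lists, was used here, so the regions are described by position and neither genes nor promoters were assigned to them.

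The score is that of the authors' peak caller for an H3K4me3 library against its input. Its lowest value was 50.01 in replicates 1 and 2 and 50 in replicate 3, and scores under 200 made up 31.1%, 32.0% and 31.6% of the autosomal peaks of replicates 1, 2 and 3. The score moves with depth, and replicate 2 had the fewest mapped reads, the lowest mapped share and the lowest GC content of the 3 H3K4me3 libraries in the study's sequencing table. The lists give no read counts, so the reads behind a region are unknown.

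Because the scores and widths chose the regions, they are given as a description. In replicate 1 the highest score of the 874 regions ran from 50.12 to 199.83 with a median of 112. For replicate 2 it ran from 50.02 to 197.92 with a median of 76.2, and in replicate 3 from 50 to 199.63 with a median of 104. Replicate 2 thus held the weakest peaks, and its score was the lowest of the 3 in 496 regions (56.8%), against 160 for replicate 1 and 217 for replicate 3. Placed within the lists, the score had median percentiles of 20.8, 12.6 and 19.9 for replicates 1, 2 and 3. A score under 100 occurred in at least 1 replicate in 777 regions and in all 3 in 166 regions, whereas 97 regions reached 100 in each replicate and only 4 reached 150 in each.

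Median covered widths were 1109, 925 and 904 bp for replicates 1, 2 and 3. Replicate 1 had the widest cover in 521 of the 874 regions. Nearly all regions were simple, with a single peak in each replicate in 866 of them, and 8 were split into more than 1 peak in some replicate.

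**Figure D1:**
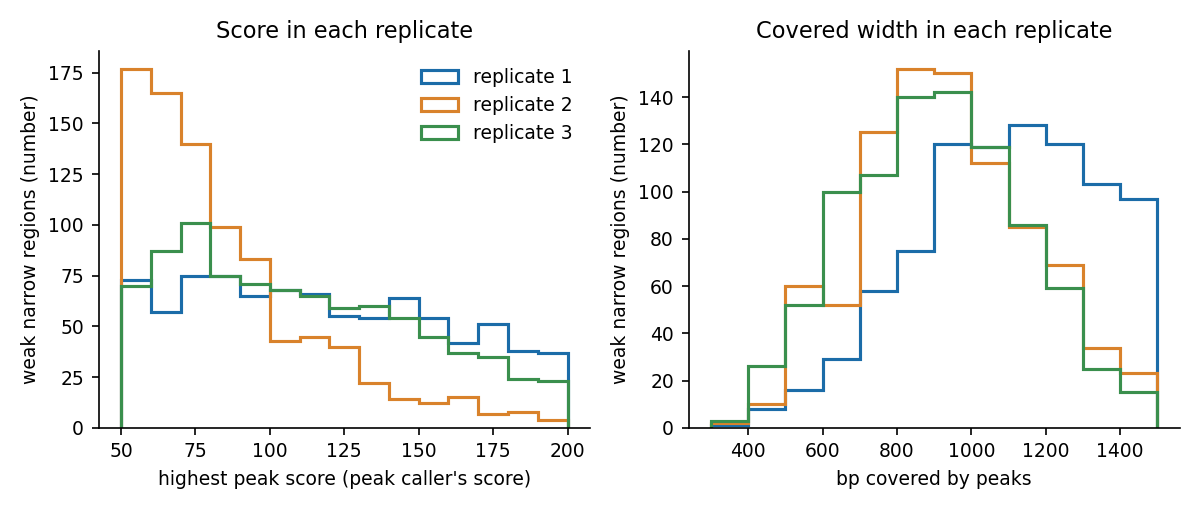
The histograms show the 874 weak narrow regions by highest peak score (left, in steps of 10) and by bp covered by peaks (right, in steps of 100 bp), 1 outline per replicate. Scores of replicate 2 gather near the lower end (median 76.2), and covered widths of replicate 1 lie to the right of the others (median 1109 bp).

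At the score limit, the 3 regions just inside and the 3 just outside were alike. On chromosome 7, the region from 15883738 to 15885135 scored 199.83, 77.83 and 142.52 in replicates 1, 2 and 3, and on chromosome 22 the region from 57027473 to 57028817 scored 175.33, 166.69 and 199.63. The third, on chromosome 8 from 91941768 to 91942941, scored 199.30, 92.21 and 150.13. Just outside lay a region on chromosome 18 from 62775295 to 62776784 with 137.21, 71.17 and 200.05, one on chromosome 28 from 35377538 to 35378932 with 175.79, 60.06 and 200.08, and one on chromosome 16 from 63525104 to 63526703 with 200.18, 70.74 and 199.17. Replicate 2 had the lowest score in all 6, and the regions on either side of the limit differed by less than a unit in the score that placed them there.

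The width limit was as fine. Just inside were a region on chromosome 4 from 75493172 to 75494774, covered over 1299, 1392 and 1499 bp in replicates 1, 2 and 3, one on chromosome 5 from 49246372 to 49247870 with 1055, 1499 and 1068 bp, and one on chromosome 29 from 26131389 to 26132887 with 1499, 1043 and 1014 bp. Just outside were a region on chromosome 23 from 47723238 to 47724899 with 1501, 1255 and 1217 bp, one on chromosome 26 from 24398021 to 24399521 with 1501, 1257 and 680 bp, and one on chromosome 5 from 119986490 to 119988115 with 1502, 934 and 1318 bp. A different replicate set the limit in each of the 3 regions inside it, whereas replicate 1 did so in all 3 outside it.

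Whether a region weak and narrow in 2 lists recurs, as a peak of any score or width, was asked of the list left out. That list took no part in choosing the regions of its round. The weak narrow regions of all 3 lists were chosen with every list, so this recurrence is not independent evidence for them. Regions were rebuilt from 2 lists at a time, those weak and narrow in both were selected, and the third list was searched for any overlapping peak. In replicate 1, a peak was found at 1667 of 1884 such regions, or 88.5% (95% Wilson interval 87.0 to 89.8). In replicate 3 it was found at 1120 of 1406 regions, or 79.7% (77.5 to 81.7), and in replicate 2 at 959 of 2130, or 45.0% (42.9 to 47.1). These intervals cover counting error only, and the rounds reuse the same 3 lists, so they are not independent. The mean over the left-out lists was 71.1% ± 23.0 (SD, n = 3), and the spread rested on replicate 2, without which the mean was 84.1%.

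Recurrence differed with the support in the first lists. Where a weak narrow region had a peak in only 1 of the 2 lists, the shares with a peak in the third list were 52.9% of 4744, 14.3% of 4140 and 37.5% of 4198 regions when replicate 1, 2 and 3 were left out. Regions weak and narrow in both lists were thus found more often by 36.1 ± 5.75 percentage points (SD, n = 3), with differences from 30.7 to 42.1 that pointed the same way in all 3 lists. At the other end, narrow regions that scored 200 or more in both lists were found at 100% of 811, 98.3% of 1011 and 100% of 521 regions in replicates 1, 2 and 3. Against these, the weak regions were found less often in all 3 lists, by 11.5 to 53.3 percentage points. With 3 lists, both differences gave p = 0.25 in the exact two-sided sign-flip permutation test. This is the smallest p that the design allows, so the differences cannot reach significance. Each list also helped to choose the regions looked up in the others. The 3 differences are therefore not independent, and neither their SD nor this p measures a spread between independent replicates. The classes compared are themselves built from presence in a list and from the score, which also chose the regions. The differences thus describe the peak calls and are not independent evidence for the weak narrow regions of all 3 lists.

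**Figure D2:**
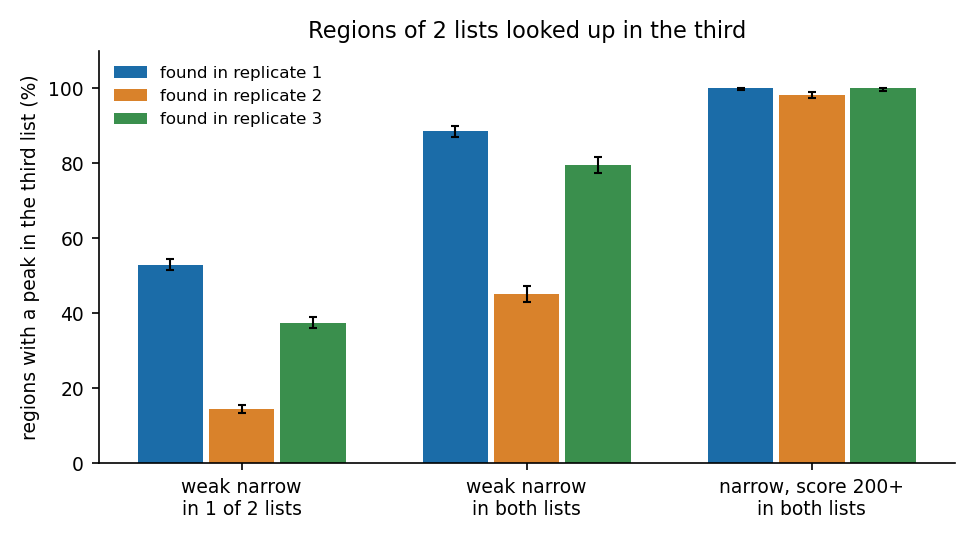
The bars give the share of regions, in percent, with a peak in the list that was left out when the regions were chosen, with 95% Wilson intervals as error bars. Within each replicate the share rises from regions weak and narrow in 1 of 2 lists (14.3% to 52.9%) through those in both lists (45.0% to 88.5%) to narrow regions with a score of 200 or more in both (98.3% to 100%).

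Within the weak range, recurrence was graded by score, which also chose the regions, so the grading is given as a description. When the lower of the 2 scores was under 75, the shares were 83.2% of 1009, 33.0% of 1047 and 73.1% of 785 regions with replicates 1, 2 and 3 left out. For a lower score from 75 to 100 the shares were 92.4%, 47.3% and 85.7%, and from 100 to 200 they were 97.4%, 66.0% and 90.9%, and the order held in each replicate. The left-out scores followed the same order in each replicate. Their medians in replicate 1 were 128, 156 and 205 from the lowest to the highest class, and in replicate 2 they were 74.5, 79.5 and 86.5.

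A peak found in the left-out list was not always weak. Of those found, 68.2%, 94.8% and 80.3% scored under 200 in replicates 1, 2 and 3, with median scores of 153, 79.3 and 123. Those that both scored under 200 and covered less than 1500 bp made up 52.7%, 91.9% and 78.0%. The shares with any peak thus exceed the shares found again as weak and narrow, most of all in replicate 1. Being weak was therefore kept least often in replicate 1 and most often in replicate 2, the shallowest library.

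The peaks of the 3 replicates were placed over each other closely, which the joining of touching peaks did not require. A stretch covered by all 3 replicates at once had a median width of 730 bp (quartiles 591 and 858 bp), or 61.6% of the region, and it took up at least 50% of the region in 679 of the 874 regions (77.7%). In the 866 regions with single peaks, the midpoints of the peaks differed by a median of 107 bp between replicates 1 and 2, 85.5 bp between replicates 1 and 3 and 92.5 bp between replicates 2 and 3. Typically the narrower peak lay almost wholly within the wider one, with a median of 99.7% ± 0.262 (SD over 3 pairs) of its width shared.

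Narrow regions with a score of 200 or more in each replicate, of which there were 436, were aligned more closely by midpoint and common stretch. They were not by the shared part of the narrower peak, with 99.5% ± 0.525 against 99.7% ± 0.262 in the weak narrow regions. Their midpoints differed by a median of 73.8 bp ± 10.6 between replicates, against 95.1 bp ± 11.1 in the weak narrow regions (SD over 3 pairs of replicates), and the median was lower in each of the 3 pairs. Their common stretch had a median of 1001 bp, or 75.9% of the region. The pairs share replicates and are not independent, so no test was made. Rank correlations of the score between replicates were 0.180, 0.255 and 0.136 (Spearman, 866 regions, in the order of the pairs above) in the weak narrow regions and 0.639, 0.749 and 0.678 in the narrow regions of higher score. These are across regions within the same libraries, and the upper limit of 200 narrows the range of the weak scores.

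**Figure D3:**
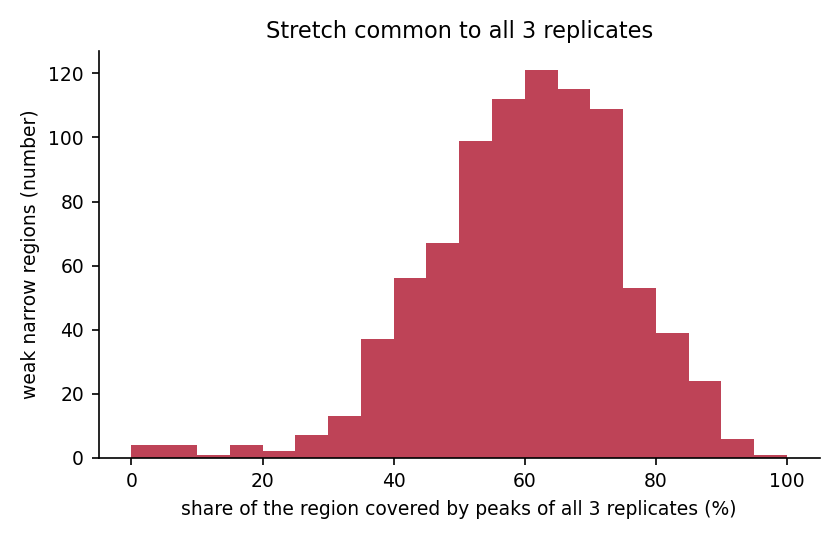
The histogram shows, for the 874 weak narrow regions, the share of the region's length in percent that peaks of all 3 replicates cover at once, in steps of 5. Most regions lie around the median of 61.6%, and 679 regions are at 50% or above.

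The 5 regions with the widest common stretch show how close the replicates can come. On chromosome 14 from 10820962 to 10822402, the peaks covered 1425, 1241 and 1433 bp in replicates 1, 2 and 3 and shared 1241 bp, the whole peak of replicate 2, at scores of 93.86, 126.32 and 149.80. On chromosome 29 from 26538626 to 26540121 they shared 1225 bp at scores of 179.23, 113.13 and 141.92, and on chromosome 11 from 78274623 to 78276207 they shared 1216 bp at 179.59, 73.04 and 182.65. Score percentiles spread by 9.70 and 7.69 in the regions on chromosomes 14 and 29 and by 18.6 in the one on chromosome 11. The last 2 lay on chromosome 3 from 27266216 to 27267674, sharing 1201 bp at scores of 84.16, 75.55 and 114.76, and on chromosome 6 from 71278562 to 71279991, sharing 1198 bp at 157.86, 62.34 and 114.87.

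In 2 regions no base was covered in all 3 replicates, so that they hang together only through a chain of touching peaks. One lay on chromosome 7 from 34720993 to 34722902, with scores of 149.43, 59.39 and 141.45 and cover of 1017, 827 and 1255 bp in replicates 1, 2 and 3. The other lay on chromosome 22 from 21273230 to 21274770, with scores of 74.10, 57.51 and 81.78 and cover of 760, 652 and 1186 bp.

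Scores agreed to different degrees from region to region. The spread between the highest and the lowest percentile of the 3 lists had a median of 13.3 and reached 31.7, close to the full range that the score limit leaves. It was smallest on chromosome 19 from 28886902 to 28887735, where the scores were 57.79, 57.07 and 56.96 in replicates 1, 2 and 3, followed by chromosome 29 from 41507005 to 41508440 with 66.30, 65.68 and 66.61. Next were chromosome 1 from 53260281 to 53261384 with 138.57, 127.34 and 129.45, chromosome 2 from 20862322 to 20863782 with 71.01, 68.14 and 70.19, and chromosome 8 from 74805239 to 74806316 with 52.45, 50.83 and 52.36. All but the one on chromosome 1 lay in the lowest part of the lists.

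The spread was largest on chromosome 12 from 72454747 to 72455814, the only one of the 5 in which replicate 2 scored highest, with 87.05, 197.92 and 50.40 in replicates 1, 2 and 3. In the other 4, replicate 2 was near the lowest score a peak can have. They lay on chromosome 5 from 96259772 to 96261146 with 176.40, 50.30 and 197.43, on chromosome 24 from 23164068 to 23165286 with 196.27, 50.37 and 138.55, on chromosome 6 from 119129259 to 119130667 with 83.58, 51.38 and 194.58, and on chromosome 19 from 42838833 to 42840225 with 187.91, 50.78 and 101.32. These 4 regions met the rule in replicate 2 by a small margin over the lowest score of that list.

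The position of the regions relative to strong H3K4me3 sites did not enter their choice, except that a weak peak touching a stronger one was joined to it. Strong regions were those that scored 1000 or more in each replicate, 6798 in all, and the remaining 8559 regions marked in all 3 replicates are named intermediate. The distance from a weak narrow region to the nearest strong region had a median of 92346 bp, with quartiles of 30568 and 281038 bp, and ran from 25 to 4800787 bp. From intermediate regions the median was 58541 bp. From weak narrow regions of 2 lists it was 78229 bp and from those of 1 list 65768 bp, and from a strong region to the next strong region it was 52462 bp. The weak narrow regions of all 3 lists had the longest median of these sets.

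They lay beside a strong region less often than the other sets did. Within 10 kb were 72 regions, or 8.24% (95% Wilson interval 6.59 to 10.2), against 15.4% of intermediate regions, 12.7% of weak narrow regions of 2 lists and 16.3% of those of 1 list. The interval covers counting error only and is no test, as all regions come from the same 3 libraries. Over 1 Mb away were 65 regions (7.44%), against 3.11%, 3.35% and 4.09% in the same sets. Within 100 kb on either side of the midpoint, 48.2% of the weak narrow regions had no strong region, against 37.1% of intermediate regions. At 3 kb or less from a strong region were 32 weak narrow regions (3.66%) and 6.86% of the intermediate ones. The share within 10 kb depended on the lists and on what counts as strong. It rose to 16.6% without replicate 2, when intermediate regions had 22.6%, and to 16.0% with strong regions from a score of 500, when intermediate regions had 22.9%. Under these settings, from a score of 3000 and without replicate 1 or 3, weak narrow regions stayed below intermediate regions, by differences of -6.96 to -1.27 percentage points.

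**Figure D4:**
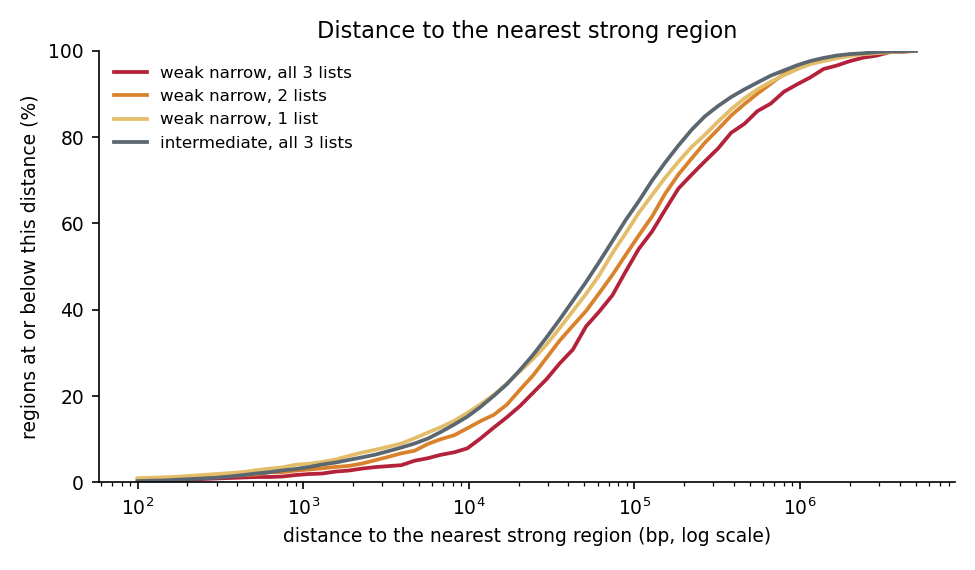
Each curve gives the share of regions, in percent, whose nearest strong region lies at or below a distance in bp on a log scale. The curve of weak narrow regions in all 3 lists runs to the right of the others, with 8.24% at 10 kb against 15.4% for intermediate regions and 12.7% and 16.3% for weak narrow regions of 2 lists and 1 list.

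To set these differences against the spread between replicates, distances were measured within each list, from the peaks of a set to the nearest peak that scored 1000 or more in the same list. Weak narrow regions of all 3 lists have a peak in every list by definition, so each list measured the same regions again. The spread between lists is thus that of peak calls, and agreement between them is not independent evidence on placement. For weak narrow regions of all 3 lists the medians were 59561, 93079 and 62315 bp in replicates 1, 2 and 3, and for intermediate regions they were 37075, 58834 and 39254 bp. The mean difference was 26597 bp ± 6629 (SD, n = 3), and the weak narrow regions were farther away in all 3 lists. The intermediate medians rest on 6028, 8875 and 6789 peaks. In replicates 1 and 3 these are fewer than the 8559 intermediate regions, so the intermediate set measured was not the same in each list. Against weak narrow regions of 1 or 2 lists, with medians of 45837, 89513 and 43644 bp, the mean difference was 11987 bp ± 7701, also with the longer distance in all 3 lists. The latter difference was only 3566 bp in replicate 2, which has fewer peaks of 1000 or more and longer distances in every set. It was longer in 2 of 3 lists when peaks up to 500 bp apart were joined (mean 9949 bp) and when strong peaks began at 500 (mean 5197 bp). Without replicate 1 it was longer in 1 of 2 lists, so this difference does not stand clear of the spread between lists.

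The share of peaks within 10 kb of a peak of 1000 or more was 15.8%, 7.54% and 14.6% in replicates 1, 2 and 3 for the weak narrow regions of all 3 lists. It was 20.5%, 13.5% and 22.0% for those of fewer lists and 23.9%, 14.9% and 22.8% for the intermediate peaks measured in each list, which again were not the same set. The weak narrow regions of all 3 lists were lower in each list, with mean differences of -6.05 ± 1.33 and -7.88 ± 0.496 percentage points (SD, n = 3). Each of these 4 differences gave p = 0.25 in the exact two-sided sign-flip permutation test over the 3 replicates, which is the smallest p possible here. As the same weak narrow regions were measured in each list, these SDs are not a spread between independent sets of regions.

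Neighbours of any score were farther away as well. The nearest region marked in all 3 replicates lay at a median of 21880 bp, against 19754 bp for weak narrow regions of 2 lists and 16341 bp for intermediate regions. Such a neighbour was within 3 kb for 150 of the 874 regions (17.2%), against 19.7% and 21.7% in these sets, and within 10 kb for 285. That neighbour was intermediate in 523 cases (59.8%), strong in 282 (32.3%) and another weak narrow region in 69 (7.89%). Strong regions made up 44.3% of the 15357 regions of all 3 lists that were not weak and narrow. The 32.3% also counts the 69 cases with a weak narrow neighbour, so these shares are not on like sets. For intermediate regions, the nearest neighbour was strong in 38.1% of cases. Within 3 kb, the neighbour was strong for 20.0% of the weak narrow regions and for 29.4% of the intermediate ones.

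The distance and the score of a region showed almost no rank relation. Across the 874 regions, Spearman's rho between the distance to the nearest strong region and the score percentile was -0.03, 0.0014 and -0.03 in replicates 1, 2 and 3, given as a description of regions that share the same libraries. The 32 regions within 3 kb of a strong region had median scores of 112, 79.3 and 115 in replicates 1, 2 and 3, and the 65 regions over 1 Mb away had 119, 71.4 and 105. The 30 strong neighbours measured within 3 kb of a weak narrow region were ordinary in length, with a median of 3543 bp against 3669 bp for all strong regions.

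The nearest to a strong region was one on chromosome 2 from 125499042 to 125500539, which lay 25 bp from it and scored 133.49, 103.81 and 68.99 in replicates 1, 2 and 3. On chromosome 16, the region from 19498299 to 19499368 was 105 bp away with scores of 55.65, 70.00 and 89.37, and the one on chromosome 5 from 106278025 to 106279312 was 154 bp away with 107.18, 62.65 and 75.07. The remaining 2 of the 5 nearest both lay on chromosome 4. One from 119080842 to 119082078 was 142 bp away and scored 150.23, 131.54 and 128.64, and one from 102975777 to 102977166 was 150 bp away and scored 136.92, 162.09 and 178.31. In all 5 the gap was shorter than the region itself, and whether these are sites of their own or parts of the strong site cannot be told apart from the lists.

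The farthest region lay near the start of chromosome 4 from 221665 to 222401, 4800787 bp from a strong region, with scores of 193.97, 57.24 and 101.94 in replicates 1, 2 and 3. It was followed by one on chromosome 11 from 55132459 to 55133399 at 4633008 bp, with scores of 102.02, 54.37 and 154.89, and one on chromosome 2 from 52270204 to 52271670 at 3791031 bp, with 192.80, 129.83 and 139.15. The first 2 were also at least 201647 bp from any region of all 3 lists, whereas the one on chromosome 2 had an intermediate region 5037 bp away. The next were on chromosome 1 from 15365890 to 15366970 at 3351446 bp, with scores of 109.35, 56.03 and 74.59, and on chromosome 12 from 73398390 to 73399119 at 3186544 bp, with 182.67, 68.11 and 90.57. The latter had another weak narrow region as its nearest neighbour, 942575 bp away, which is the region on chromosome 12 with the largest spread of scores.

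The 65 regions over 1 Mb from a strong region lay on 23 of the 29 autosomes, with at most 5 on a single chromosome. Their nearest region of all 3 lists was at a median of 201647 bp and was intermediate in 54 cases, and for 11 of them it too was over 1 Mb away.

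Few weak narrow regions lay within 10 kb of another, but they are also sparse, with a median of 0.331 per Mb over the autosomes. Their spacing was not compared with random placement. They made up 5.38% of the regions marked in all 3 replicates. They were the nearest such neighbour for 7.89% of the weak narrow regions, 7.89% of those of 2 lists and 6.03% of intermediate regions. The next weak narrow region was at a median of 623002 bp, and only 26 of the 874 regions had another within 10 kb, which formed 13 pairs and no larger group. The pairs lay on 10 chromosomes, with 3 of them on chromosome 15, and 8 of the 13 were less than 3 kb apart. Only 1 pair had a strong region within 10 kb.

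Among the 13 pairs, the first along the genome joined the regions on chromosome 2 from 20860748 to 20861854 and from 20862322 to 20863782, 467 bp apart, with scores of 130.39, 98.38 and 134.09 in the former and 71.01, 68.14 and 70.19 in the latter in replicates 1, 2 and 3. On chromosome 6, regions from 109304719 to 109305551 and from 109315451 to 109316347 were 9899 bp apart with scores of 76.83, 105.71 and 59.13 and of 116.85, 96.98 and 62.94. On chromosome 7, regions from 54003379 to 54004482 and from 54014386 to 54015208 were 9903 bp apart with 150.40, 54.99 and 113.86 and with 169.29, 50.19 and 117.48. On chromosome 7 both regions had their highest score in replicate 1 and their lowest in replicate 2. On chromosome 6 replicate 3 was lowest in both, and on chromosome 2 the former region was higher than the latter in each replicate.

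Every autosome carried weak narrow regions, from 9 on chromosome 26 to 57 on chromosome 7. Their number largely went with that of the strong regions, and all autosomes together held 12.9 weak narrow regions per 100 strong ones. The ratio was highest on chromosome 27, with 25 weak narrow and 64 strong regions or 39.1 per 100, followed by chromosome 24 with 19.4 and chromosome 21 with 18.8. It was lowest on chromosome 26, with 9 and 131 regions or 6.87 per 100, and then on chromosome 10 with 7.58 and chromosome 5 with 9.33. Chromosome 27 thus lay apart from the other 28 autosomes, which spanned 6.87 to 19.4.

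**Figure D5:**
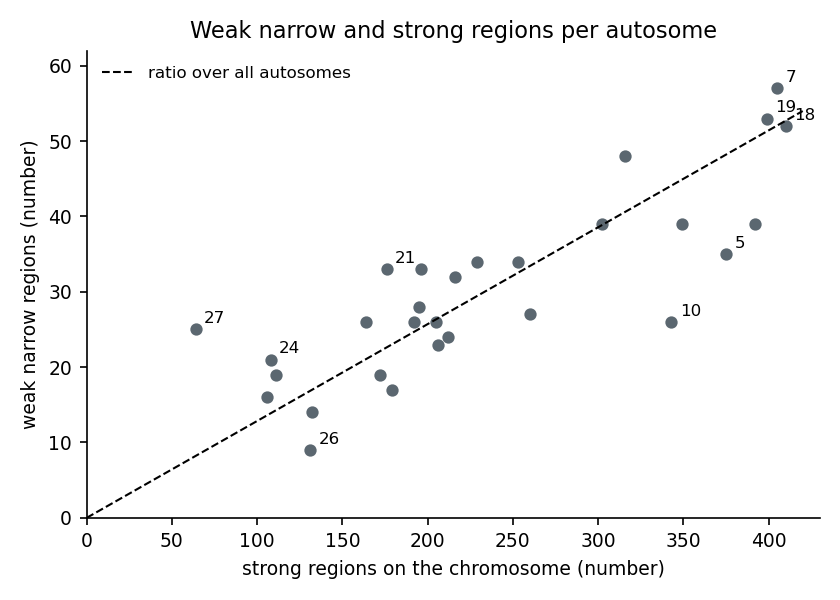
Each point is an autosome, placed by its number of strong regions and its number of weak narrow regions, and the dashed line marks the ratio over all autosomes (12.9 per 100). Chromosome 27 (64 strong and 25 weak narrow regions) lies far above the line and chromosomes 10 and 26 lie below it.

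Chromosome 27 ranked first in each replicate on its own. Peaks with a score under 200 and a width under 1500 bp numbered 107, 155 and 121 per 100 peaks of 1000 or more on chromosome 27 in replicates 1, 2 and 3, against medians over the autosomes of 53.5, 73.9 and 68.7 and next highest values of 74.5, 106 and 98.7. It also stayed first when the regions were rebuilt without replicate 1, 2 or 3, with 67.2, 58.3 and 50.0 per 100 strong regions against next highest values of 40.9, 37.5 and 32.4. The ratio has both counts in it. Chromosome 27 had the fewest strong regions per Mb up to the last peak of all autosomes, 1.42 against a median of 2.54. Its 0.554 weak narrow regions per Mb exceeded the median of 0.331 but were not the most. Chromosomes 19, 18 and 25 had 0.828, 0.788 and 0.631 per Mb. Weak narrow regions of fewer lists were frequent relative to strong ones on chromosome 27 as well, at 152 per 100 strong regions, against a next highest value of 127.

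The 25 regions on chromosome 27 had median scores of 119, 81.8 and 98.3 in replicates 1, 2 and 3, against 112, 75.9 and 104 for the 849 regions on the other autosomes, and so were higher in replicates 1 and 2 and lower in replicate 3. Their distance to the nearest strong region had a median of 157185 bp, from 6291 to 3094235 bp, against 90313 bp on the other autosomes, and a single one lay within 10 kb.

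Along the chromosomes, both ends held larger shares of the weak narrow regions than of the strong ones. Taking the end of the last peak as the chromosome's end, the last 10% of the chromosomes held 158 of the 874 regions (18.1%), against 16.7% of intermediate and 11.7% of strong regions. The share was higher still in weak narrow regions of fewer lists, at 19.9%, and in narrow regions with a score of 200 or more, at 24.8%, so it was not particular to weak regions. The first 10% held 10.9% of the weak narrow regions, against 7.61% of strong, 8.66% of intermediate and 8.80% of weak narrow regions of fewer lists and 9.17% of narrow regions of higher score. In the first 1 Mb, where the centromere of these acrocentric chromosomes lies, there were 13 regions, or 1.49% (95% Wilson interval 0.871 to 2.53), against 0.838% of strong regions (0.648 to 1.08) and 0.888% of intermediate regions (0.710 to 1.11), a difference that was not tested. These intervals too cover counting error only.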

How the data were processed

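H3K4me3 ChIP-seq peak lists of 3 replicates were analysed, each made by the authors from an H3K4me3 library and its own input. According to the study's methods and the submitters' processing notes, 51-base single-end reads were aligned to UMD 3.1.1 (bosTau8) with Bowtie 1.2.3, duplicates were removed with Picard and peaks were called with MACS per replicate. The version and thresholds of MACS are not given in the sources used here. The deposited score of each peak is the peak caller's, on a scale that the authors do not state. The 2nd and 3rd columns hold positions, and starts were counted from 1 here.

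Regions, distances and shares came from scripts in Python 3.11.15 that used pandas 2.3.3 for tables, NumPy 2.4.6 for distances, SciPy 1.17.1 for tests and Matplotlib 3.10.9 for plots. Distance is the number of bases between the nearest edges. Percentiles are ranks within a whole list. The only test is an exact two-sided sign-flip permutation test over the 3 replicates, since regions within a list are not replicates. Region building and distances were tested on simulated data.

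The members, limits and comparison sets were chosen with earlier results of these data known. Regions named in the text are those nearest to and farthest from strong regions, those with the widest or no common stretch, those with the smallest and largest spread of percentiles, the first 3 pairs of neighbours, those at the limits and the chromosomes with extreme ratios. Alternatives varied the limits, the joining of peaks, the strong score, the chromosomes and the replicates. Genes, promoters and sequences were not analysed here, since no annotation of UMD 3.1.1 was used. The recurrence in a left-out list, its alternatives and the intermediate regions under other settings were added after the lists had been seen.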

Additional observations from a re-analysis of the deposited data

Results flagged for a closer look

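Chromosome X lay outside the choice of regions, and a signal of the same kind was seen there. It held 54 regions that met the same limits in all 3 replicates. These were 8.71% of its 620 regions with a peak in all 3 replicates, against 5.38% on the autosomes. Per 100 of its 195 strong regions they numbered 27.7, against 12.9 over all autosomes and 39.1 on chromosome 27, the highest autosome. The difference was not tested. Their median scores were 122, 97.8 and 109 in replicates 1, 2 and 3, the median common stretch was 703 bp, and the median distance to the nearest strong region was 150155 bp, with 4 regions within 10 kb. The embryos were unsexed, so the number of X chromosomes behind these regions is unknown and its part in the scores was not tested.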

How the results depend on the processing

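The number of regions followed the limits that define them, as it must, with 523 under a score limit of 150, 1410 under 300 and 211 under a width limit of 1000 bp, and it ranged from 1406 to 2130 when 1 replicate was left out, highest without replicate 2. The median distance to the nearest strong region was 130154 bp under the width limit of 1000 bp, 59774 bp with strong regions from a score of 500 and 529090 bp from 3000, and 58099 to 90051 bp with 1 replicate left out. The share within 10 kb was 6.16%, 16.0% and 1.60% in the same 3 settings and 8.89% to 16.6% with 1 replicate left out. Among the settings with 1 replicate left out, the values of both measures farthest from the main one came without replicate 2. The common stretch had a median of 590 bp under the width limit of 1000 bp and 790 to 833 bp over 2 replicates. The difference in distance from weak narrow regions of fewer lists kept its direction on average in all 15 alternatives, from 5197 to 40115 bp, and from 8276 to 11996 bp with 1 replicate left out. The recurrence in a left-out list stayed between 62.3% and 84.1% in its 6 alternatives, all added after seeing the data. No paired analysis was possible because the input libraries, which share replicate numbers with the H3K4me3 libraries, entered only through the peak calls; sets of regions were compared within each list. Absence from a list means only that no peak was detected with that library's depth.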
